A study of Mus musculus with 6 samples.

Results

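The Rab GTPases are small proteins on the cytosolic face of membranes that mark organelles and direct vesicle traffic. Their genes were taken from the count table by symbol, as every symbol made of Rab, a number and at most a letter and a digit, with Rab11a left out by that rule. This gave 58 of the 25239 genes of the table. By its title, each of 6 libraries is of a mouse GV oocyte (germinal vesicle stage, before meiosis resumes). Cumulus-oocyte complexes (an oocyte with its follicle cells) came from CD-1 females, an outbred strain, aged 4 to 6 weeks, with no genetic modification named. In both groups the complexes were injected and cultured in maturation medium with 10% serum and 200 mIU/mL follicle-stimulating hormone. In 3 libraries the injected fluid was water, and in the other 3 it was a mixture of phthalate metabolites, the breakdown products of plasticizers, with no dose or composition given in the labels. The comparison addresses what the mixture does to the transcripts of the oocyte.

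A Rab protein is active when bound to GTP and inactive when bound to GDP. Exchange factors load GTP, GTPase-activating proteins trigger its hydrolysis, and effectors are the tethers, motors and adaptors that bind the active form. Lipid groups added at the C terminus hold the protein on the membrane, and the GDI proteins (GDP dissociation inhibitors) take inactive Rab proteins off it. In oocytes, Rab proteins are known for the transport and release of cortical granules, the vesicles whose exocytosis helps to prevent fertilization by more than a single sperm.

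The labels name no animal or culture for any library. Their titles number 3 oocytes per group, while their extraction protocol can be read as 1 oocyte per group, and which holds is not settled. Each group therefore counts as 1 sample. No difference between the groups was tested, and the SD over libraries may be technical. Library totals ran from 252267 to 300917 gene counts. From 14 to 15 of 15 oocyte markers had counts in each library, with 8954 to 10725 counts in all. The 20 cumulus and granulosa markers took 10 to 39 counts per library, 75 in the water group (5 markers with a count) and 55 in the phthalate group (7 markers). Nr5a2 gave 79.2% of these counts, and 10 markers, among them Amh, Star, Foxl2 and Ptx3, were at 0 in all libraries. Pairs of libraries of the same group differed by a chi-square per degree of freedom of 1.22 to 2.98 on counts halved to read pairs, so no library was taken as a copy of another. Pairs of a water and a phthalate library differed by 1.65 to 2.40, so phthalate libraries 1 and 3, at 2.98, differed more from each other than any phthalate library did from a water library. Water pairs reached 1.67.

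Because many Rab genes are close relatives, the coding sequences of 2 sets were aligned to see whether reads can tell their members apart. Shown are the 60 bases in which each set is most alike, in the sense strand of the GENCODE M21 transcripts (GRCm38), with the bases that differ within the set in capitals. The first set is the Rab3 genes, which act in regulated secretion. It has 13 variable positions of 60.
Rab3a: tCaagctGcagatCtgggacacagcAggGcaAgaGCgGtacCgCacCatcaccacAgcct
Rab3b: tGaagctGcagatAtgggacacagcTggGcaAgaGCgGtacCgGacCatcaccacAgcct
Rab3c: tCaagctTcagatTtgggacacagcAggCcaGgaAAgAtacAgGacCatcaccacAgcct
Rab3d: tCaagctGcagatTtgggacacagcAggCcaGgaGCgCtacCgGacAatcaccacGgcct
The second set is the Rab5 genes, which act in the fusion of early endosomes. It has 12 variable positions of 60.
Rab5a: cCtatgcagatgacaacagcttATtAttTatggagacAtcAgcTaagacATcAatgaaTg
Rab5b: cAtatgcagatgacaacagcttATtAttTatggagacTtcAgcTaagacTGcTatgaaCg
Rab5c: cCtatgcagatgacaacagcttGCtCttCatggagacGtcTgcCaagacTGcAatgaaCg
Over their whole aligned coding sequence, pairs of Rab3 genes were 71.8% to 76.3% identical and pairs of Rab5 genes 72.4% to 76.0%. Even in the window most alike, a pair differed at 4 to 10 positions. Across all 58 genes, 0 shared a stretch of 150 bases, the read length, with another member. A stretch of that length occurred in the transcript of some other gene for 18 members. The share was highest for Rab43 (76.7%) and Rab4b (75.4%), each shared with an overlapping annotated gene of the same strand (Gm45140 and Gm21983, neither of which has a row in the table used), and for Rab2b (63.0%), which overlaps Tox4, a gene with 15 counts in the water and 26 in the phthalate group. How the counting treated reads from these stretches is not given in the sources used here, so counts of these 3 genes are uncertain.

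Rab transcripts made up a small part of the oocyte's RNA. Together the members took 1617 counts in the water group, 0.189% of all gene counts (95% exact binomial interval 0.180 to 0.199). They took 1525 counts in the phthalate group, a share of 0.185% (0.176 to 0.195). The shares of the single libraries were 0.190%, 0.181% and 0.197% with water and 0.167%, 0.206% and 0.180% with phthalate. Phthalate library 1 was the lowest of all and phthalate library 2 the highest, so the water values lay inside the phthalate range. Without phthalate library 2 the phthalate share was 0.174%. The log2 ratio of phthalate over water for the sum was -0.012 (-0.11 to 0.089), and these intervals, like all below, cover counting error only.

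Counts were found for 42 of the 58 genes in 1 library or more, that is 72.4%, against 50.7% of all genes in the table. A count in every library was found for 22 members. Per library, 29 to 34 members were detected, and after thinning all libraries to 252267 counts the highest number was 33.7. The 16 members at 0 in every library were Rab3c, Rab7b, Rab9b, Rab15, Rab19, Rab20, Rab26, Rab27b, Rab33a, Rab34, Rab37, Rab39, Rab40b, Rab42, Rab43 and Rab44. Over all libraries a 0 allows a level of up to 1.79 CPM (counts scaled to 1000000 gene counts per library), on 3 counts. If both mates of a pair were counted, 3 read pairs are 6 counts and the limit is 3.58 CPM, an alternative added after the data were seen. For Rab43, most of whose sequence is shared with another gene, a 0 gives no such limit. A further 8 members had only 1 to 4 counts in all: Rab2b, Rab5a, Rab6b, Rab24, Rab28, Rab30, Rab31 and Rab36.

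The family's counts were concentrated in few genes. The 8 members with a mean of at least 20 counts per library (Rab7, Rab14, Rab38, Rab3d, Rab3b, Rab5c, Rab8a and Rab35) held 61.9% of all Rab counts, and the first 3 of them 38.3%. That mean was reached by 13.8% of the members, beside 11.0% of all genes in the table. Another 8 had a mean from 10 to under 20: Rab27a, Rab10, Rab2a, Rab4a, Rab21, Rab8b, Rab6a and Rab18. The other 18 with a mean of at least 1 were Rab32, Rab1b, Rab22a, Rab23, Rab3a, Rab4b, Rab1a, Rab9, Rab13, Rab33b, Rab11b, Rab12, Rab17, Rab40c, Rab5b, Rab25, Rab39b and Rab29.

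**Figure D1:**
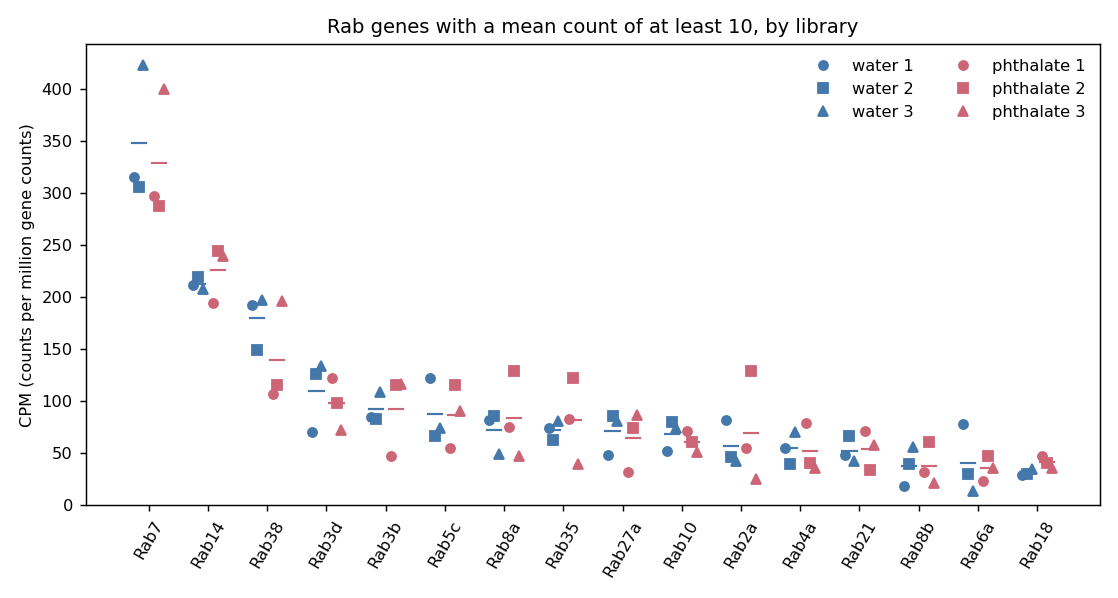
CPM in each library of the 16 Rab genes that average 10 counts or more, water in blue and phthalate in red, with a line at each group mean. Rab7, Rab14 and Rab38 stand above the rest, and for every gene except Rab18 the points of the groups overlap.

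Among the Rab genes of late endosomes and lysosomes, Rab7, which governs the passage from late endosome to lysosome, had the most counts. It spans chromosome 6 from 87999106 to 88045270 (minus strand, GRCm38). Its CPM was 315, 306 and 423 in water libraries 1, 2 and 3 and 297, 288 and 400 in phthalate libraries 1, 2 and 3. The third library of each group was the highest, and the groups overlapped. On the log2 scale the ratio was -0.065 (95% interval -0.31 to 0.18). Of its stretches of 150 bases, 7.17% also occur in other genes, among them Gm5577, which had 0 counts.

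Rab38, known for traffic to melanosomes and other lysosome-related organelles, was the other abundant member of this role. It lies on chromosome 7 from 88430273 to 88491572 (plus strand). The CPM was 193, 150 and 197 with water and 107, 115 and 196 with phthalate. Phthalate libraries 1 and 2 were below all water libraries, while phthalate library 3 was level with the highest of them. The log2 ratio was -0.34 (-0.70 to 0.019), the lowest of the 8 members, and without phthalate library 3 it was -0.71. Its close relative Rab32 had 55 counts in all.

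In the early endosomal role, Rab14, which acts between the Golgi and early endosomes, had the lowest SD relative to its level of the 8 abundant members. It lies on chromosome 2 from 35180205 to 35201120 (minus strand). Its CPM was 212, 219 and 208 in the water libraries and 194, 244 and 240 in the phthalate libraries, with overlap. This gave a log2 ratio of 0.11 (-0.19 to 0.41). Rab5c, a regulator of early endosome fusion on chromosome 11 from 100715009 to 100738215 (minus strand), had a CPM of 122, 66.5 and 74.0 with water and 55.5, 115 and 90.9 with phthalate. The first library was the highest with water and the lowest with phthalate. The log2 ratio of Rab5c was 0.053 (-0.43 to 0.54).

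Rab35, which acts in endosomal recycling and cytokinesis, had a CPM of 74.2, 63.1 and 81.1 with water and 83.2, 122 and 40.0 with phthalate. Both the highest and the lowest value were in the phthalate group. It lies on chromosome 5 from 115631908 to 115647736 (plus strand). Its log2 ratio was 0.21 (-0.31 to 0.73), and -0.22 without phthalate library 2.

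Of the secretory Rab genes, Rab3d and Rab3b had the most counts. Rab3d lies on chromosome 9 from 21907491 to 21918192 (minus strand) and Rab3b on chromosome 4 from 108879063 to 108943324 (plus strand). The CPM of Rab3d was 70.5, 126 and 134 with water and 123, 98.3 and 72.7 with phthalate. For Rab3b it was 85.3, 83.1 and 109 with water and 47.6, 115 and 116 with phthalate. In both genes the groups overlapped widely. The log2 ratio was -0.18 (-0.62 to 0.27) for Rab3d and 0.054 (-0.42 to 0.52) for Rab3b.

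Rab8a carries vesicles from the Golgi to the plasma membrane and the cilium. It lies on chromosome 8 from 72161200 to 72183904 (plus strand). Its CPM was 81.6, 86.4 and 49.3 with water and 75.3, 129 and 47.3 with phthalate, and the spread within the phthalate group covered all water values. The log2 ratio was 0.25 (-0.27 to 0.76), the highest of the 8, and -0.22 without phthalate library 2. Rab27a, which docks secretory granules at the plasma membrane, was just under the mean of 20 counts. It had 13, 26 and 23 counts with water and 8, 22 and 24 with phthalate.

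No member of the early secretory role, which runs between endoplasmic reticulum and Golgi, reached a mean of 20 counts. Rab2a, which acts on membranes between these organelles, had 22, 14 and 12 counts with water and 14, 38 and 7 with phthalate. Rab1b, needed for transport from the endoplasmic reticulum to the Golgi, had 11, 12 and 0 counts with water and 2, 20 and 8 with phthalate. In both genes phthalate library 2 was the highest of all libraries. The ratio turned negative when phthalate library 2 was left out, from 0.37 to -0.46 for Rab2a and from 0.46 to -0.47 for Rab1b (log2). For Rab1b it was also negative, at -0.12, without water library 3. Rab6a, a Golgi Rab, overlaps Mrpl48 on the opposite strand, a gene with 569 counts in the water and 595 in the phthalate group. As the use of strand is not given in the sources used here, its 64 counts are uncertain.

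Summed by role, the early secretory genes varied more between libraries, relative to their level, than the 3 other large roles. They also held fewer counts, 350 in all against 855 to 942, and these include the 64 uncertain counts of Rab6a. Whether the lower counts account for the spread was not tested. The summed CPM of the early secretory genes was 275, 193 and 127 in the water libraries and 159, 342 and 149 in the phthalate libraries. Phthalate library 2 thus stood above the rest. In that library 6 cumulus and granulosa markers had a count, against 1 to 3 in each other library. By summed marker counts it was not the highest, with 26 against 39 in water library 1. Their part in the result was not tested. The late endosomal and lysosomal genes had 564, 538 and 694 with water and 464, 437 and 673 with phthalate. Here phthalate libraries 1 and 2 were below all water libraries, and phthalate library 3 was not. Of the 942 counts of this role, 567 were of Rab7 and 268 of Rab38, both described above. The log2 ratio of the sums was 0.19 (-0.12 to 0.50) for the early secretory role and -0.17 (-0.36 to 0.014) for the late endosomal and lysosomal role. It was 0.057 (-0.13 to 0.25) for the early endosomal and 0.015 (-0.18 to 0.21) for the exocytosis and recycling role. The early secretory value above 0 rested on phthalate library 2, as phthalate libraries 1 and 3 were below water libraries 1 and 2. The cilium and other roles had 64 counts in all.

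**Figure D2:**
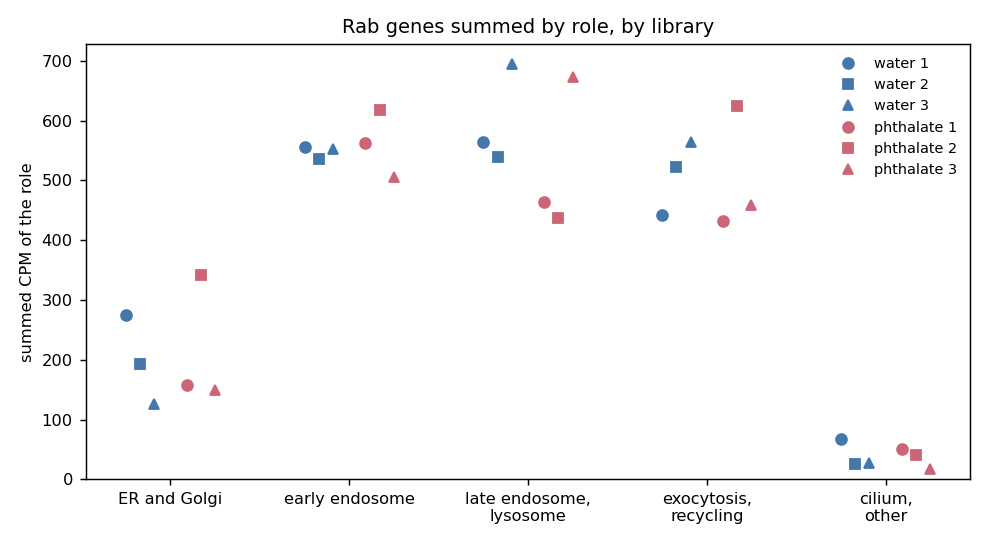
Summed CPM of the Rab genes of each role, a point per library, water in blue and phthalate in red. The early secretory genes range from 127 to 342, and the early endosomal genes from 506 to 617.

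Levels of different genes were compared per length, as CPM per kilobase of the median GENCODE M21 protein-coding transcript, over all 6 libraries. Rab14 had 237 ± 20.9 (SD, n = 6 libraries), Rab7 204 ± 34.9 and Rab38 148 ± 38.8. The SDs of neighbours in this order overlap. With the longest transcript of each gene the levels became 71.2, 157 and 101, so the order of these 3 genes depends on which transcript the oocyte uses. Next came Rab3b with 86.1 ± 24.6, Rab5c with 74.2 ± 22.9 and Rab3d with 46.0 ± 12.3 on the median transcript, and again the neighbours overlap. Rab8a, seventh by mean count, was 18th per length with 17.2 ± 6.55, on a transcript of 4550 bases.

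In several sets of closely related Rab genes a single gene carried nearly all of the level per length. Of 14 sets with 31 members, the highest gene held at least 90% of the set in 10, and in 9 with the longest transcripts. With 3 counts in place of each 0, an alternative added after the data were seen, it did so in 7, since Rab33b, Rab39b and Rab40c had only 18, 8 and 11 counts. The highest gene was above the next in every library in 7 of the 14 sets. The gene with the highest level was the same under both lengths in all 14 sets. Rab5c held 96.9% of the Rab5 set, at 74.2 against 1.89 ± 1.68 for Rab5b and 2 counts in all for Rab5a. Rab2a held 96.9% against Rab2b, whose counts are uncertain. Rab6a, whose counts are uncertain as well, held 96.9% against Rab6b. Rab7b, Rab9b and Rab27b were at 0 beside Rab7, Rab9 and Rab27a. Rab38 held 90.6% of the pair with Rab32, or 86.8% with the longest transcripts.

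Other sets were shared between genes. Rab3b held 57.4% of the Rab3 set and was above Rab3d in 5 of 6 libraries. With the longest transcripts its share was 39.5%, since Rab3b and Rab3d then had levels of 27.9 and 26.8. Rab3a, the Rab3 gene most studied at synapses, had 18.0 ± 10.7, and Rab3c was at 0. Rab1b had 39.1 ± 31.1 against 6.74 ± 2.12 for Rab1a and was above it in 5 of 6 libraries. Rab4a (43.0 ± 14.3) was above Rab4b (20.4 ± 7.74) in all 6 libraries, although most of the sequence of Rab4b is shared with an overlapping gene. Rab8a was above Rab8b (8.08 ± 3.72) in 5 of 6.

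**Figure D3:**
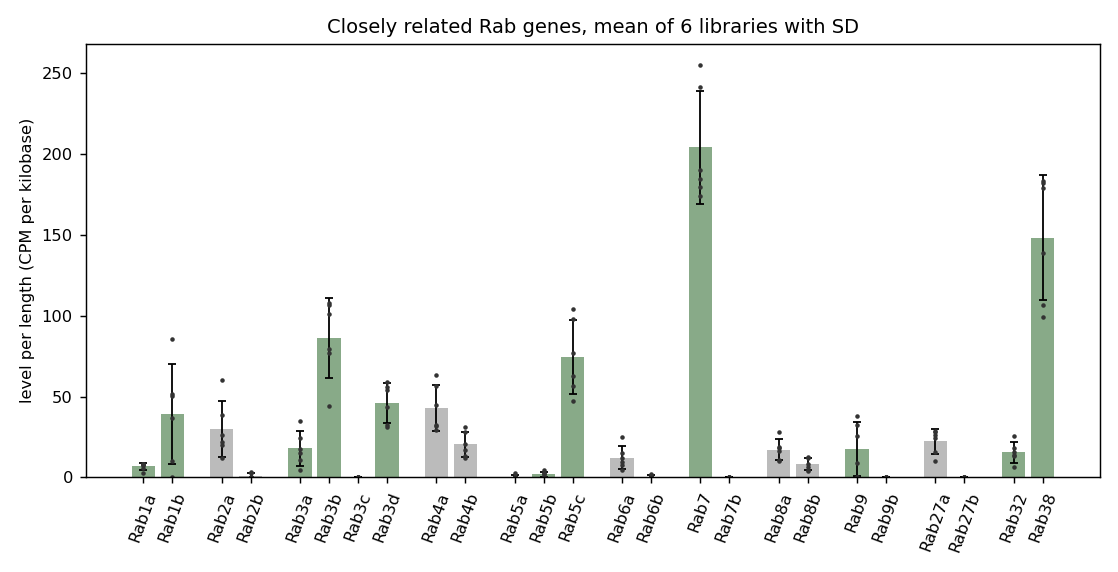
Level per length (CPM per kilobase, median transcript) of Rab genes in 11 sets of close relatives, as the mean of 6 libraries with SD and a dot per library, colours alternating between sets. In the Rab2, Rab5, Rab6, Rab7 and Rab27 sets a single gene holds nearly all of the level, while the Rab3, Rab4 and Rab8 sets are shared. Counts of Rab2b, Rab4b and Rab6a are uncertain.

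Between the groups, 0 of the 8 members with a mean of at least 20 counts lay past a fold of 1.5, 0 higher and 0 lower. Over all 2784 genes of that abundance, 8.12% were past that fold, 4.02% higher and 4.09% lower with phthalate. The log2 ratios of the 8 members ran from -0.34 to 0.25, with 5 above and 3 below 0 (Rab5c was at -0.0069 with the mean of CPM in place of sums) and a median of 0.053, beside a median of 0.016 over the 2784 genes. For comparison, 90% of those genes lay between -0.54 and 0.54. The CPM values of the groups failed to overlap for 0 of the 8 members, beside 10.1% of all genes. Over 8 genes those backgrounds amount to less than 1 gene. Each counting interval of the 8 held 0. Those of Rab38, Rab3d, Rab8a and Rab35 also held the fold of 1.5 in a direction, so the intervals of these 4 genes leave room for a change of that size. On counts halved to read pairs the intervals of Rab3b and Rab5c reached it as well, and those of Rab7 and Rab14 did not. Leaving out phthalate library 3 put Rab38 past the fold, the only such case among the 6 libraries left out in turn.

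**Figure D4:**
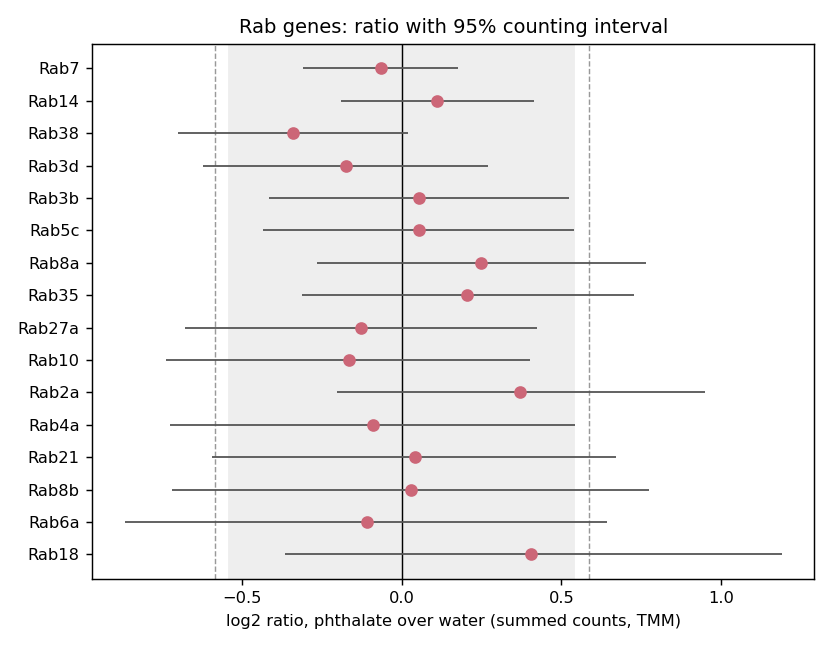
Log2 ratio of phthalate over water for the 16 Rab genes that average 10 counts or more, with 95% counting intervals. Dashed lines mark a fold of 1.5, and grey marks the range from -0.54 to 0.54 that holds 90% of the 2784 genes. All 16 points lie between the dashed lines.

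In the class with a mean from 10 to under 20, 0 of 8 members were past a fold of 1.5, beside 25.1% of the 1727 genes of that class. The groups failed to overlap for 1 of 8 members, beside 9.96% of the class. This was Rab18, a Rab of the endoplasmic reticulum and lipid droplets. It had 8, 9 and 10 counts with water and 12, 12 and 10 with phthalate. In CPM these were 29.7, 29.9 and 35.2 against 47.6, 40.7 and 36.4, so the lowest phthalate value was barely above the highest water value. A log2 ratio of 0.40 (-0.37 to 1.19) resulted.

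Among the 18 members with a mean from 1 to under 10, 3 did not overlap, beside 9.26% of the 5408 genes of that class. These 3 were singled out after their values were seen. Rab9, which returns receptors from late endosomes to the Golgi, had 6, 10 and 8 counts with water and 2, 0 and 0 with phthalate. Its log2 ratio was -3.51 (-6.64 to -1.50), or -8.93 to -0.76 with counts halved to read pairs, and -2.38 without phthalate library 1, where the phthalate sum of 0 was set to 3 counts. Rab13, known for traffic to epithelial junctions, had 0, 2 and 2 counts with water and 3, 9 and 4 with phthalate, a log2 ratio of 2.07 (0.44 to 4.11). On read pairs that interval ran from -0.25 to 5.35. Rab4b, an endosomal recycling Rab, had 10, 10 and 7 counts with water and 4, 6 and 4 with phthalate, a ratio of -0.88 (-1.92 to 0.11). Past a fold of 1.5 lay 7 of the 18 members, 3 higher and 4 lower, beside 55.1% of the genes of this class in either direction.

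The genes that act on Rab proteins were counted from 5 lists with 171 genes in the table, of which 150 had a count and 35 a mean of at least 20. Past a fold of 1.5, 0 were higher and 2 lower with phthalate, beside 4.02% and 4.09% of all genes. This split depended on single libraries: leaving out each of the 6 in turn gave 1 to 2 higher and 0 to 4 lower. Zw10, which acts in tethering at the endoplasmic reticulum and Golgi and was chosen after its value was seen, had the highest ratio of the 35, at 0.55 (0.050 to 1.07). It was past the fold without water library 2 (0.80), water library 3 (0.66) or phthalate library 2 (0.81). Its CPM was 37.1, 86.4 and 77.5 with water and 135, 67.8 and 98.2 with phthalate, with overlap. The median log2 ratio of the 35 was -0.022. The groups failed to overlap for 3 of them, 0 higher and 3 lower with phthalate, beside 4.42% and 5.64% of all genes.

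Both genes past the fold act with members described above. Appl1, an adaptor that binds active Rab5 on early endosomes, had a CPM of 111, 63.1 and 113 with water and 67.4, 71.2 and 21.8 with phthalate. The groups overlapped through water library 2, and the log2 ratio was -0.81 (-1.37 to -0.26). On read pairs the interval ran from -1.63 to -0.025. Without phthalate library 3 the ratio was -0.48, short of the fold. Madd, an exchange factor for Rab3 and Rab27 proteins, had 134, 86.4 and 120 with water and 79.3, 74.6 and 65.5 with phthalate, with no overlap. Its log2 ratio was -0.61 (-1.10 to -0.13), and the interval on read pairs, from -1.31 to 0.082, held 0. Without water library 1 the ratio was -0.49, without water library 3 -0.55 and without phthalate library 3 -0.58, each short of the fold.

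By list, 9 GTPase-activating proteins reached a mean of 20 counts, with 0 past the fold and a median log2 ratio of 0.13. Tbc1d15, which acts on Rab7, was the most abundant, with 677 counts in the water and 652 in the phthalate group. Tbc1d14, a regulator of autophagy, had a CPM of 349, 415 and 430 with water and 266, 285 and 269 with phthalate. Rab3gap1, the catalytic subunit of the Rab3 GTPase-activating complex, had 397, 372 and 366 against 218, 332 and 251. In both genes every phthalate library was below every water library. The log2 ratio was -0.53 (-0.78 to -0.28) for Tbc1d14 and -0.47 (-0.72 to -0.22) for Rab3gap1, each short of the fold of 1.5. Tbc1d14 was past it without water library 1 (-0.63) and Rab3gap1 without phthalate library 2 (-0.64). Its noncatalytic partner Rab3gap2 had a ratio of -0.18 (-0.56 to 0.19).

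Of 15 effectors, 0 were higher and 1 lower past the fold (6.67%, beside 8.12% of all genes in either direction), with a median of -0.083. At that share a list of 15 genes holds about 1 gene past the fold, and the shorter lists fewer. Myo5b, a motor that moves recycling vesicles on actin, had 359 counts with water and 295 with phthalate, and Rph3al, a partner of Rab3 and Rab27 in secretion, had 285 and 267. Of 7 exchange factors 1 was lower, Madd, and the median was 0.014. Trappc5, a subunit of the TRAPP tethering complexes, had 167 and 144 counts, and Rin3, an exchange factor for Rab5 proteins, 130 and 145. Of 4 genes for prenylation and extraction 0 were past the fold, with a median of -0.077. Gdi2, which extracts inactive Rab proteins from membranes, had 150 and 141 counts, and Yipf1, a Golgi membrane protein, 89 and 75. Of the 7 Rab-like genes 0 reached the mean of 20 counts.

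**Figure D5:**
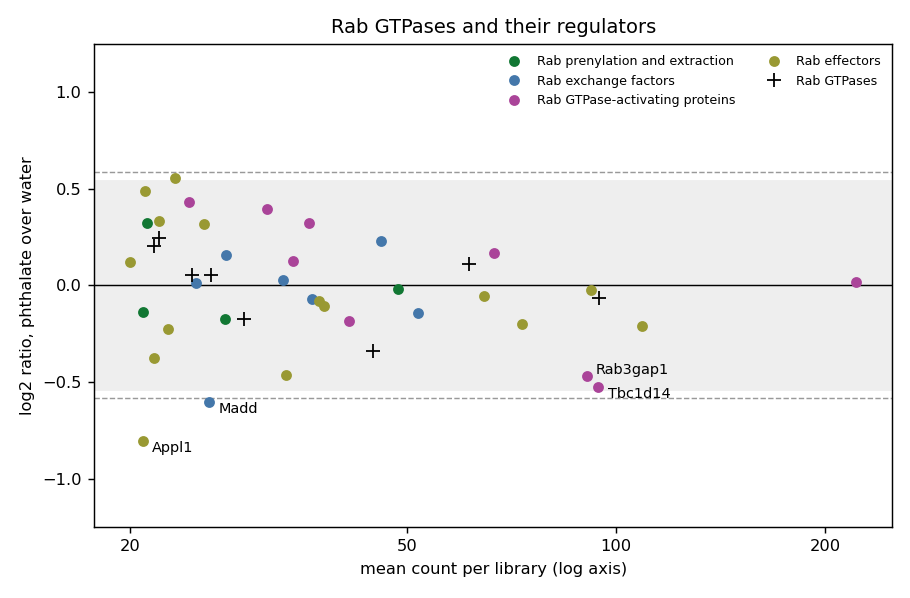
Log2 ratio of phthalate over water against mean count (log axis) for 35 regulators and effectors, coloured by list, and for 8 Rab GTPases as crosses, with dashed lines at a fold of 1.5 and grey from -0.54 to 0.54. Appl1 and Madd lie below the lower dashed line, and the Rab GTPases lie between -0.34 and 0.25.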

How the data were processed

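The authors deposited raw whole-number counts, with a row for each of 25239 gene symbols and 92 ERCC spike-ins. Per the labels, polyA RNA of single oocytes was amplified with Smart-seq3 and sequenced as read pairs of 150 bases. The submitters' processing notes name cutadapt, Trimmomatic, HISAT2, DESeq2 and the build mm10. The counting tool, annotation, strand and use of molecular identifiers are not given in the sources used here. Even values made up 69.9% of counts from 1 to 20, so both mates of a pair may have been counted, and intervals are then too narrow.

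ERCC rows stayed out of totals, which ran from 252267 to 300917. The ERCC rows had 753, 338 and 313 counts in the water libraries and 443, 498 and 292 in the phthalate libraries. CPM and ratios are relative to gene counts and do not give amounts per oocyte. Counts of a group were summed and divided by totals scaled with TMM factors (edgeR 4.0.16, R 4.3.3) from 4644 genes that passed filterByExpr (minimum count 10, total 15). No pseudocount was added, but 3 counts stood in for a group sum of 0, and no ratio was computed when the other sum was at most 3. Intervals are exact (Clopper-Pearson, 95%). The ratio was run on simulated counts with known folds, drawn independently at the library totals without TMM factors. Those counts hold no paired mates and no differences between libraries of a group beyond sampling. They therefore cannot show whether the intervals hold here. A call means a fold of 1.5 or more at a mean of 20 counts or more per library. Named genes are members with that mean, regulators past the fold and the 2 most abundant regulators of a list that reach that mean, which the planned rule asked for only in lists with no gene past the fold. Zw10, Rab3gap1, Rab3gap2 and the low-count members were chosen after their values were seen. Members and lists were chosen with earlier results of these data known. Lengths and positions came from GENCODE M21, which held all 58 members, and coding sequences were aligned with MAFFT 7.526. Alternatives were each library left out, 2 other scalings, mean CPM, other filters, a fold of 2, read pairs, Rn45s left out of totals and the longest transcript.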

Additional observations from a re-analysis of the deposited data

How the results depend on the processing

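Leaving out 1 library in turn gave 0 members higher past a fold of 1.5 and 0 to 1 lower, the 1 being Rab38 without phthalate replicate 3. Of 35 regulators it gave 1 to 2 higher and 0 to 4 lower, from 2.86% to 17.1% in either direction, beside 8.76% to 13.1% of all genes. The phthalate share of counts on Rab genes ranged from 0.174% to 0.194%, and the water share from 0.186% to 0.194%. Without a filter beyond a count in both groups, 2 members were higher and 4 lower of 34, and 7 regulators higher and 33 lower of 134 (5.22% and 24.6%), beside 16.9% and 18.8% of all genes. At a mean of 10 counts or more, 2 regulators were higher and 7 lower of 64 (14.1%), beside 14.6% of all genes, and 1 of 16 members had all phthalate CPM above water, beside 4.43% of all genes. At a fold of 2, 0 of 35 regulators were higher and 0 lower, beside 0.216% and 0.395% of all genes, shares that amount to less than 1 gene of 35. The other scalings and the mean of CPM gave the same counts. More genes with few counts enter under the looser filters. For the rest the cause was not tested.

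No paired analysis was possible because no animal or culture is named in the labels, so that a group was treated as a single sample and nothing was tested. Over 10 alternatives the sign of the ratio changed in 5 for Rab5c, 4 for Rab3b, 3 for Rab7 and 1 each for Rab8a and Rab35, and in 0 for Rab14, Rab38 and Rab3d. Among the 10, the halving to read pairs leaves every ratio unchanged. Rab3d came as near to 0 as -0.017, without water library 3. At these depths 8 of 58 members reached the mean of 20 counts, and the counting intervals of 4 of them reached a fold of 1.5.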
